A study of Mus musculus with 6 samples.

Results

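The 35 genes described here are antiviral interferon-stimulated genes, genes that type I interferons switch on in most cells, taken as a list by gene symbol without the guanylate-binding protein, immunity-related GTPase and interferon regulatory factor families. The list was chosen with earlier results of these data known, and all 35 members had a row among the 21825 genes of the count table. They were followed in 6 RNA libraries of group 2 innate lymphoid cells (ILC2s, tissue lymphocytes that make type 2 cytokines) sorted from the lungs of 6-week-old BALB/c mice. The cells were isolated after IL-33, a cytokine that activates ILC2s, had been injected 3 times into the peritoneum at 1 µg, and every culture held IL-2 and IL-7 at 10 ng/mL each for 48 h. The 3 libraries of the TNFa group, replicates 4 to 6, came from cells that also received 40 ng/mL TNFa, a cytokine that acts mainly through NF-kB, and the 3 of the PBS group, replicates 1 to 3, from cells that received its vehicle. PBS replicate 2 is labelled a repeat. The labels give neither the gates of the sort nor whether libraries came from separate cultures, animals or pools, so p-values measure only the spread between these libraries, which may be technical. The comparison asks how ILC2 RNA levels differ between cells given TNFa and cells given its vehicle.

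Type I interferons bind a receptor of the chains Ifnar1 and Ifnar2, whose kinases Jak1 and Tyk2 phosphorylate STAT proteins such as Stat2. With Irf9, Stat2 is part of ISGF3, a factor that binds the interferon-stimulated response element (ISRE) in promoters of many interferon-stimulated genes. The proteins act at successive steps of a viral infection: sensors detect foreign RNA, the Oas, Ifit and Eif2ak2 products degrade RNA or stop its translation, and Mx1, Rsad2, Bst2 and Ifitm3 act on entry, replication or release. NF-kB, the main factor downstream of TNFa, is separate from this pathway, although both take part in switching on the interferon-beta gene.

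The cells carried the RNAs of ILC2s. Gata3, encoding a transcription factor that ILC2s require, lay between 897 and 1034 CPM (counts scaled to library size by the TMM method) with PBS and between 647 and 746 CPM with TNFa, and Il5 between 4009 and 5796 CPM over the 6 libraries. Of the other ILC2 markers, Thy1 stayed at or under 4.53 CPM and Ptgdr2 at or under 0.380 CPM. Of all 17 tested ILC2 markers 1, the costimulatory receptor gene Icos, fell with TNFa (edgeR, adjusted p = 0.0363), where 2 of all 15719 tested genes fell. At an unadjusted p under 0.05 stood 11 of the 17, 5 of them higher with TNFa, against 1306 of all tested genes. All TNFa libraries lay above all PBS libraries for 3 markers and below them for 7, against 1073 and 1313 of all tested genes. Library totals ran from 25089415 to 32487004 counts. TNFa replicate 5 stood apart: it held the highest value of 26.4% of tested genes and the lowest of 29.3%, where each other library held from 13.7% to 16.0% and from 12.0% to 16.1%. In bulk RNA such as this, fewer cells of a type and less RNA per cell cannot be told apart.

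The promoters of Isg15, Ifit1 and Rsad2 are shown, with those of the 2 tested members that had the lowest fold changes. They were searched for the element through which interferon acts. Sequences are RefSeq windows of build GRCm38.p6, from 250 bases before to 50 bases after a start site, and 27 of the 35 members had at least 1 window. Capitals mark the core of the ISRE, searched as GAAANNGAAA on both strands; sites that overlap run together. The Isg15 window is chr4:156200769-156201068 (minus strand), with 3 overlapping cores that begin 78, 72 and 66 bases before the start site. The Ifit1 window is chr19:34640639-34640938 (plus strand), with cores on the other strand that begin 104 and 85 bases before it. The Rsad2 window, chr12:26456403-26456702 (minus strand), has 1 core on the other strand, 120 bases before the start site. The windows of the 2 tested members with the lowest fold changes, Ifit2 at chr19:34550444-34550743 (plus strand) and Lgals3bp at chr11:118401910-118402209 (minus strand), hold 0 cores. A second Ifit2 window, chr19:34550838-34551137 (plus strand), also holds 0 cores and is not printed.
Isg15: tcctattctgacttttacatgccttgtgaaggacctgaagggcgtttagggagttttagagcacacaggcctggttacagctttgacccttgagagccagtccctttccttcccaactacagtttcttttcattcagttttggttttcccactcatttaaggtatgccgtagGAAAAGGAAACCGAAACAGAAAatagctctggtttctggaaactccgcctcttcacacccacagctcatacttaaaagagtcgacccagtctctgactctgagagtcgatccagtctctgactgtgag
Ifit1: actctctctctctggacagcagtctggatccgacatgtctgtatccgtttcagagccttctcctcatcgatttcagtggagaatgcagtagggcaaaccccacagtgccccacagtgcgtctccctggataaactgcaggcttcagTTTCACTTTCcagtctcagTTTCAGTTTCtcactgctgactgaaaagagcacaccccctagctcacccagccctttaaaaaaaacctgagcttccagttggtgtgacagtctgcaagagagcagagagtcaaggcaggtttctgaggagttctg
Rsad2: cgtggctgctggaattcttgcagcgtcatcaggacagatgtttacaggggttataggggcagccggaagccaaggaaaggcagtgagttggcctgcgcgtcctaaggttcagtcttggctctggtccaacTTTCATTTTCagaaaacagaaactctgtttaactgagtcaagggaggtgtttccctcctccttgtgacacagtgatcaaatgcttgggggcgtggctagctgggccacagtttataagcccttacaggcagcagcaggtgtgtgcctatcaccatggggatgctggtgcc
Ifit2: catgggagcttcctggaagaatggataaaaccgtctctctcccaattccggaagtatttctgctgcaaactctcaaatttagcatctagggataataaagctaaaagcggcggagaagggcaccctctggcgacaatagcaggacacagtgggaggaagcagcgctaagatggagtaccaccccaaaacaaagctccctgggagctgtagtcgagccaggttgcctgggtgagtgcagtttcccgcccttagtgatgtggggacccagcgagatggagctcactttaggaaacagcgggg
Lgals3bp: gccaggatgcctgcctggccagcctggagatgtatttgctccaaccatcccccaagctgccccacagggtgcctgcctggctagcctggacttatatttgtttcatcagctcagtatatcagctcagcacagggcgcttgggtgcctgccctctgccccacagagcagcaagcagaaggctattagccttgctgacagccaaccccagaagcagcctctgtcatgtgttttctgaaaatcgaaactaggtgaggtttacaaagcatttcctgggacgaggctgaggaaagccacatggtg

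The ISRE core stood in 42.4% of the 33 member windows and in 3.44% of all 32851 windows. By gene, 13 of the 27 members had a core in at least 1 window (48.1%), against 3.99% of genes in the promoter table. A longer form, GAAANNGAAACT, which contains the core, was found in 7 members (25.9%), against 0.303% of genes. The gamma-activated site TTCNNNGAA was found in 9 members (33.3%), against 9.55% of genes, and the kB-like motif GGGANNTTCC in 3 members, Isg20, Ifit2 and Ifitm3 (11.1%), against 1.63% of genes. Among tested members the median log2 fold change of TNFa over PBS was 0.61 for the 11 with an ISRE core and 0.23 for the 13 without, and the medians in TNFa replicate 6 alone were 0.82 and 0.65 above the PBS mean. For the gamma-activated site the split went the other way, with medians of 0.18 for the 9 members with it and 0.61 for the 15 without (0.49 and 1.02 in TNFa replicate 6). Over all 403 tested genes with an ISRE core, members included, the median was 0.04 (0.07 in TNFa replicate 6). Over the 46 with the longer form, members included, it was 0.21 (0.38 in TNFa replicate 6). Among tested members the medians were 0.59 for the 6 with the longer form and 0.25 for the 18 without (0.86 and 0.66 in TNFa replicate 6). These are descriptions of few genes. A match is a run of letters and not a shown binding site. Oasl2, with the largest log2 fold change of the members, and also Xaf1 and Cmpk2, had 0 cores in their windows.

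With PBS the members covered a wide range. Per unit of transcript length (TPM, transcript abundance from counts and the exon length of each gene), Lgals3bp, a secreted glycoprotein, was highest with PBS at 372 ± 22.2 TPM (SD, n = 3), followed by Ifitm3, which blocks fusion of viruses with cell membranes, at 305 ± 26.8 TPM. Ifi35 at 157 ± 6.06 TPM and Bst2 at 154 ± 14.1 TPM came next and did not differ beyond their spread. Zbp1, a sensor of Z-form nucleic acid, followed at 50.9 ± 1.30 TPM. Isg15 stood at 15.6 ± 1.89 TPM, and at the low end Ifi44 (0.054 ± 0.022 TPM), Rsad2 (0.057 ± 0.082 TPM) and Oas2 (0.073 ± 0.127 TPM) did not differ beyond their spread. Over all 6 libraries, 19 members averaged at least 10 CPM and 6 under 1 CPM.

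With TNFa, no member passed the test, but most had higher means and nearly all were highest in the same library. Of the 35 members, 30 were abundant enough to be tested, and 27 of these had a higher mean with TNFa. Their median log2 fold change was 0.59, against 0.0047 over all 15719 tested genes. With the quasi-likelihood test of edgeR, 0 of 30 members reached a Benjamini-Hochberg adjusted p under 0.05, where 16 of all tested genes (0.102%) did. At an unadjusted p under 0.05, 14 members were higher and 0 lower, where 3.68% of all tested genes were higher at that level. All 3 TNFa libraries lay above all 3 PBS libraries for 9 members (30.0%), against a background of 6.83%: Isg15, Ifit1, Oasl2, Bst2, Zbp1, Ifih1, Xaf1, Parp14 and Ifitm3. The adjusted p-values ran from 0.277 (Bst2) to 0.985 (Samhd1). DESeq2 called 4 of 34 members higher: Oasl2, Bst2, Xaf1 and Isg15 (adjusted p from 0.0227 to 0.0462), where it called 114 genes higher and 141 lower of 17151. The voom method with library weights called 0 of 30 members, where it called 41 genes higher and 37 lower of 15719. The low-count filter lets in genes that are high in a single group: Ifit1, Oasl1 and Oasl2 did not reach it in all 3 PBS libraries, and the other 27 tested members had a median of 0.47, with 24 higher with TNFa, 12 at an unadjusted p under 0.05 and 7 without overlap.

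The TNFa libraries were unequal. On the log2 CPM scale with a prior count of 2, the median of the 30 members stood 0.30 above the PBS mean in TNFa replicate 4, 0.23 in replicate 5 and 0.76 in replicate 6, while the same median over all tested genes lay between -0.01 and 0.01. Replicates 4 and 5 were not set apart: with upper quartile scaling their medians were 0.30 and 0.33, and 18 of 30 members were higher in replicate 4. TNFa replicate 6 held the highest value of 25 of the 30 members (83.3%), against 13.7% of all tested genes, and 28 members (93.3%) exceeded all 3 PBS libraries there, against 25.4% of all genes. In replicate 4, 17 members exceeded all PBS libraries (56.7%, all genes 26.0%), and in replicate 5, 11 did (36.7%, all genes 32.6%). The 5 tested members that were not highest in replicate 6 were Ifih1, Trim25 and Ifitm3, highest in replicate 5, Oasl1, highest in PBS replicate 2, and Lgals3bp, highest in PBS replicate 1. Among the vehicle libraries, PBS replicate 3 was the lowest of the 6 libraries for 11 members (36.7%, all genes 14.6%). TNFa replicate 5 was the lowest for 8 (26.7%), near its share of 29.3% over all genes.

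**Figure D1:**
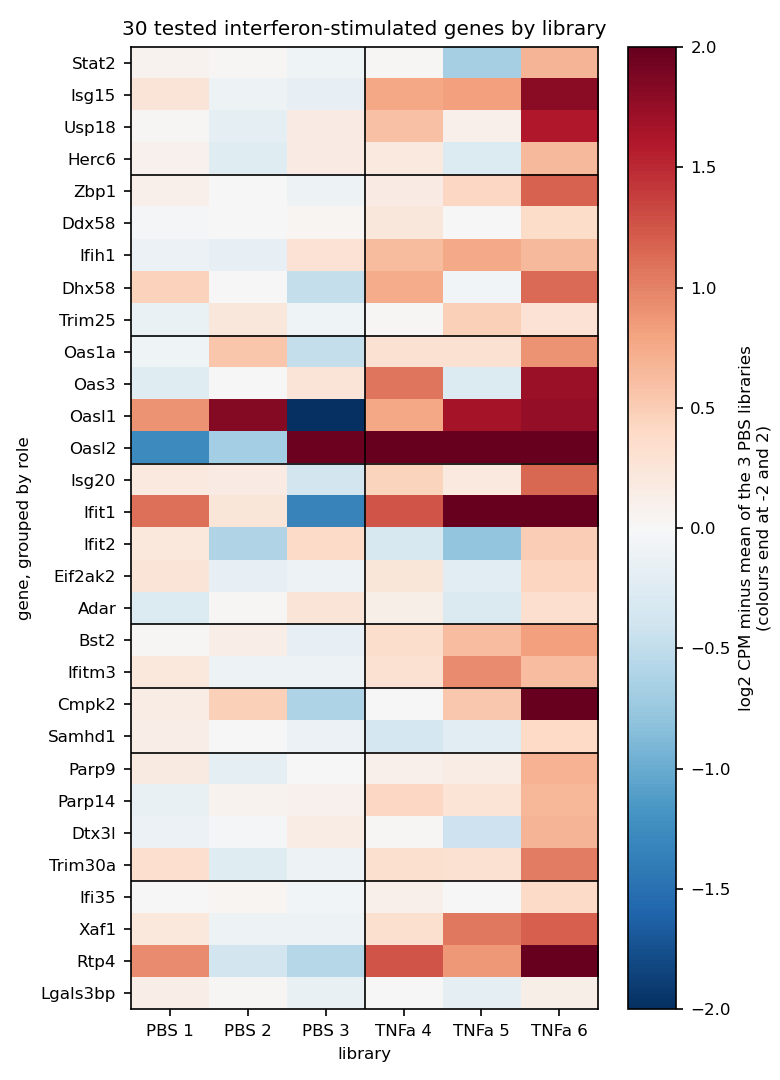
Each row is 1 of the 30 tested members, grouped by role, and each column a library; the colour is log2 CPM (prior count 2) minus the mean of the 3 PBS libraries, with colours ending at -2 and 2. The TNFa 6 column is red throughout, with a median of 0.76, while TNFa 4 and TNFa 5 are paler and hold blue cells as well.

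Stat2 and the Isg15 system came first in the pathway. Stat2, a subunit of ISGF3, was at 48.9, 47.5 and 43.7 CPM with PBS and at 47.4, 29.4 and 74.4 CPM in TNFa replicates 4, 5 and 6. The groups overlapped, replicate 5 being the lowest of all libraries and replicate 6 the highest, and the log2 fold change was 0.11 ± 0.27 (SE, adjusted p = 0.943). Isg15, a ubiquitin-like protein joined to other proteins, was at 5.15, 4.01 and 3.83 CPM with PBS and 7.39, 7.63 and 15.1 CPM with TNFa. Here every TNFa library was above every PBS library, with a 2.32-fold higher mean (95% interval 1.38 to 3.91, adjusted p = 0.340). Usp18, which removes Isg15 and also dampens interferon receptor signalling, was at 7.66, 6.65 and 8.41 CPM with PBS and 11.3, 8.06 and 23.1 CPM with TNFa; replicate 5 lay within the PBS range (1.87-fold, 1.07 to 3.26, adjusted p = 0.524). For Herc6, the main Isg15 ligase in mice, the log2 difference was 0.23 ± 0.23 (adjusted p = 0.836).

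None of the RNA sensors passed the test. Ddx58, which encodes RIG-I itself, was at 60.6, 62.3 and 64.0 CPM with PBS and 72.8, 62.5 and 80.5 CPM with TNFa, and replicate 5 again lay within the PBS range (log2 fold change 0.21 ± 0.13, adjusted p = 0.723). Ifih1, encoding MDA5, a sensor of long double-stranded RNA, was at 6.61, 6.40 and 8.80 CPM with PBS and 11.1, 12.2 and 11.3 CPM with TNFa. It was the most even of these sensors: the 3 TNFa libraries lay close together, all above PBS, and the fold change of 1.59 (1.12 to 2.26, adjusted p = 0.438) was as large without replicate 6 (log2 0.68 ± 0.27 against 0.67 ± 0.23). Dhx58, encoding LGP2, which modulates both sensors, stood at 0.65 ± 0.37 (adjusted p = 0.700), and Trim25, a ubiquitin ligase that acts on RIG-I, at 0.27 ± 0.17 (adjusted p = 0.733). Zbp1 was at 70.6, 65.5 and 61.6 CPM with PBS and 73.7, 88.2 and 150 CPM with TNFa. Its groups did not overlap, but replicate 4 was only slightly above the highest PBS library (1.58-fold, 1.11 to 2.24, adjusted p = 0.453).

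The oligoadenylate synthetases, which activate the nuclease RNase L, were scarce. Oas1a was at 3.06, 4.80 and 2.30 CPM with PBS and 4.02, 4.00 and 6.07 CPM with TNFa, with overlap (log2 fold change 0.47 ± 0.37, adjusted p = 0.781). Oas3 was at 2.70, 3.20 and 3.82 CPM with PBS and 6.85, 2.67 and 10.7 CPM with TNFa; replicate 5 was below every PBS library while replicates 4 and 6 were above (1.06 ± 0.46, adjusted p = 0.583). Oasl2, a relative with ubiquitin-like domains, had 0, 1 and 17.5 estimated counts with PBS and 45, 34 and 273 with TNFa. It had the largest log2 fold change of the members, 4.18 ± 1.17 (adjusted p = 0.353), but the value rests on few counts in PBS: it was 7.47 without PBS replicate 3 and 2.88 without TNFa replicate 6. Oasl1, which limits translation of the interferon factor Irf7, was at 0.784, 1.57 and 0 CPM with PBS and 0.711, 1.38 and 1.48 CPM with TNFa, with full overlap (0.61 ± 1.03, adjusted p = 0.910); without PBS replicate 3 the value was 0.02 and without PBS replicate 2 it was 1.6. Oas2, at 11, 0 and 0 counts with PBS and 0, 0 and 2 with TNFa, was too rare to test.

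The Ifit proteins bind foreign RNA or block its translation. Ifit1 was at 1.84, 0.981 and 0.285 CPM with PBS and 2.06, 4.62 and 7.34 CPM with TNFa. The groups did not overlap, though replicate 4 was close to PBS replicate 1, and the log2 fold change was 2.18 ± 0.67 (adjusted p = 0.393). Ifit2, a neighbour of Ifit1 on chromosome 19, was at 7.53, 4.29 and 8.55 CPM with PBS and 5.18, 3.74 and 9.17 CPM with TNFa, the lowest log2 fold change of the 30 (-0.17 ± 0.39, adjusted p = 0.938). Ifit3 had 16, 6 and 0 counts with PBS and 0, 0 and 31.4 with TNFa and was not tested; it has a near-identical copy, Ifit3b, so its counts are uncertain. Eif2ak2, the kinase PKR that shuts down translation on binding double-stranded RNA, was at 24.7, 18.4 and 19.2 CPM with PBS and 24.3, 17.7 and 27.9 CPM with TNFa (0.17 ± 0.21, adjusted p = 0.873). Adar, which edits double-stranded RNA and keeps it from the sensors, was at 54.9, 67.6 and 79.2 CPM with PBS and 72.5, 54.2 and 84.3 CPM with TNFa (0.07 ± 0.19, adjusted p = 0.953). Both overlapped between groups with replicate 6 highest. For Isg20, an exonuclease, the log2 difference was 0.64 ± 0.28 (adjusted p = 0.570).

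The 2 abundant membrane restriction factors were higher in each TNFa library. Bst2 (tetherin), which holds budding virus at the cell surface, was at 51.7, 55.7 and 45.2 CPM with PBS and 65.0, 77.8 and 89.7 CPM with TNFa (1.52-fold, 1.21 to 1.92, adjusted p = 0.277). Ifitm3 was at 87.2, 70.4 and 70.4 CPM with PBS and 93.1, 145 and 116 CPM with TNFa (1.55-fold, 1.19 to 2.01, adjusted p = 0.306). Replicate 6 was not the highest for Ifitm3, and its log2 fold change of 0.63 ± 0.17 was 0.64 ± 0.20 without that library. Rsad2 (viperin), which makes a chain-terminating nucleotide, had 1, 7 and 0 counts with PBS and 7, 23 and 61 with TNFa. Mx1, a GTPase against influenza virus that is defective in many inbred mouse strains, had 4.1, 10 and 3 counts with PBS and 8.5, 7.5 and 33.9 with TNFa. Neither was tested, and both were highest in replicate 6.

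**Figure D2:**
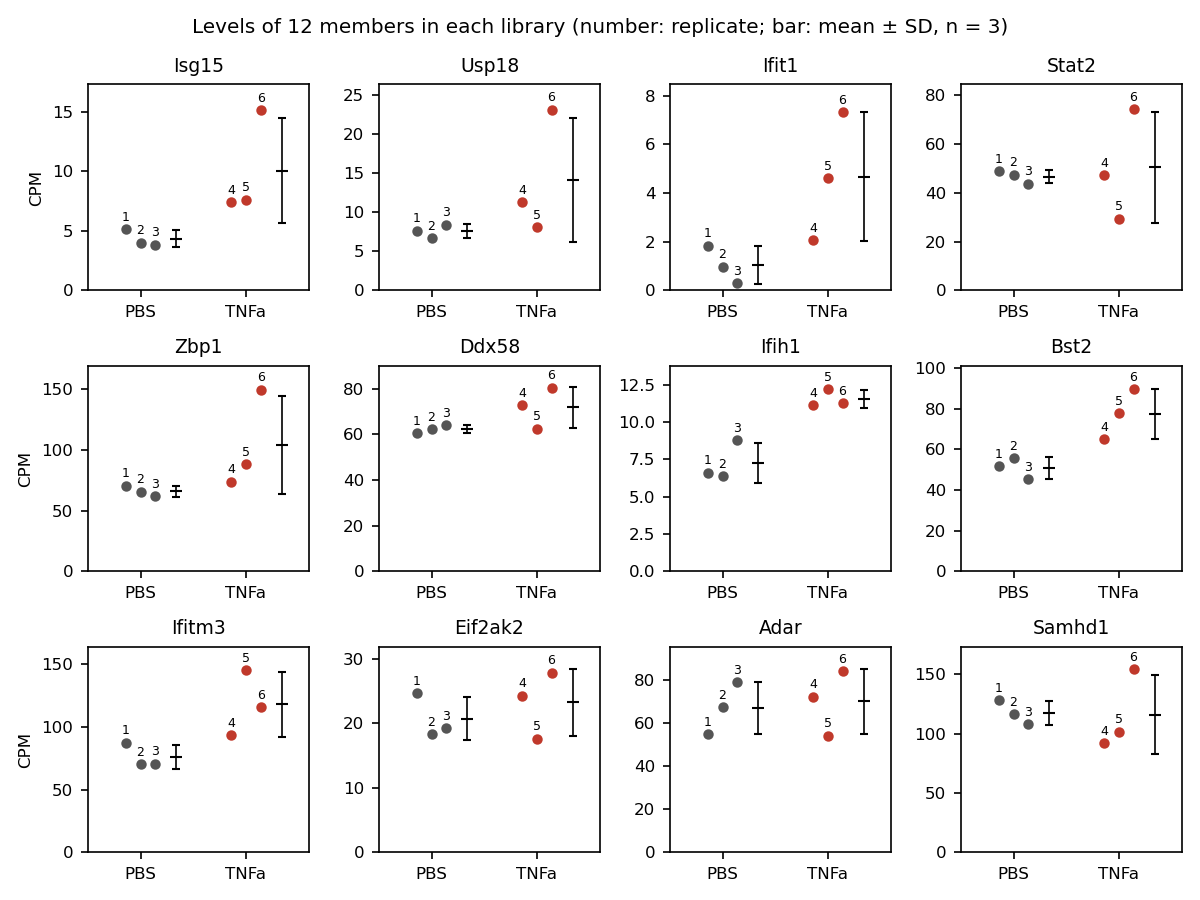
Levels of 12 members in CPM (vertical axis, from 0) in each library; the number beside a point is its replicate and the bar is mean ± SD (n = 3). For Isg15, Usp18, Stat2 and Zbp1 TNFa replicate 6 lies far above the other TNFa libraries (15.1, 23.1, 74.4 and 150 CPM), whereas for Ifih1 and Ifitm3 it does not.

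Genes of nucleotide supply and of ADP-ribosylation gave mostly small differences. Samhd1, which depletes the nucleotides that retroviruses need, was at 128, 116 and 108 CPM with PBS and 92.0, 102 and 154 CPM with TNFa: replicates 4 and 5 were below every PBS library and replicate 6 above (log2 fold change -0.02 ± 0.18, adjusted p = 0.985). Cmpk2, a mitochondrial nucleotide kinase next to Rsad2 on chromosome 12, had 36, 46 and 22 counts with PBS and 28, 44 and 160 with TNFa. Its log2 fold change of 1.13 ± 0.61 (adjusted p = 0.692) was 0.24 ± 0.60 without replicate 6. Parp14, Parp9 and Dtx3l, neighbours on chromosome 16 that act in ADP-ribosylation and ubiquitination, stood at 0.46 ± 0.15, 0.33 ± 0.18 and 0.16 ± 0.24 on the log2 scale (adjusted p = 0.435, 0.688 and 0.896). Parp9 and Dtx3l overlap on opposite strands, and whether counting used strand is not given in the sources used here. Trim30a, which restrains NF-kB signalling, stood at 0.57 ± 0.24 (adjusted p = 0.558).

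Among the remaining members, Rtp4, a receptor-transporting protein, had the third largest log2 fold change, at 8.35, 3.33 and 2.88 CPM with PBS and 10.5, 7.96 and 24.6 CPM with TNFa (2.96-fold, 1.35 to 6.48, adjusted p = 0.419), with replicate 5 below PBS replicate 1. Xaf1, which antagonises the caspase inhibitor XIAP, was at 19.7, 15.8 and 15.9 CPM with PBS and 21.4, 35.6 and 39.0 CPM with TNFa (1.86-fold, 1.30 to 2.67, adjusted p = 0.293). It was high in replicates 5 and 6 and near PBS in replicate 4. The log2 difference of Ifi35 was 0.18 ± 0.12 (adjusted p = 0.748) with overlap between groups. Lgals3bp was at 425, 394 and 348 CPM with PBS and 385, 343 and 422 CPM with TNFa (-0.02 ± 0.12, adjusted p = 0.977), nearly the same range in both groups. Ifi44 had 4, 2 and 5 counts with PBS and 0, 4 and 50 with TNFa and was not tested.

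Without TNFa replicate 6 the picture was smaller and less uniform. The median log2 fold change was 0.29 in place of 0.59, and 23 of 30 tested members had a higher mean. At an unadjusted p under 0.05, 7 were higher, against 3.65% of all genes in that fit. In edgeR's test 0 members passed (lowest adjusted p = 0.451), where 5 of all 16416 tested genes were called higher and 0 lower. Besides Ifit2, Lgals3bp and Samhd1, Stat2, Dtx3l, Herc6 and Adar then had lower means with TNFa (log2 fold changes -0.28, -0.19, -0.03 and -0.09). Isg15 kept 0.79 ± 0.32, Xaf1 0.73 ± 0.25 and Bst2 0.49 ± 0.16. Without TNFa replicate 5, the library that stood apart, all 32 members then tested had higher means. Of these, 21 were at an unadjusted p under 0.05, against 5.23% of all genes. Again 0 members were called in edgeR's test (lowest adjusted p = 0.112, Oas3), where 38 of all 16484 tested genes were called higher and 29 lower.

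**Figure D3:**
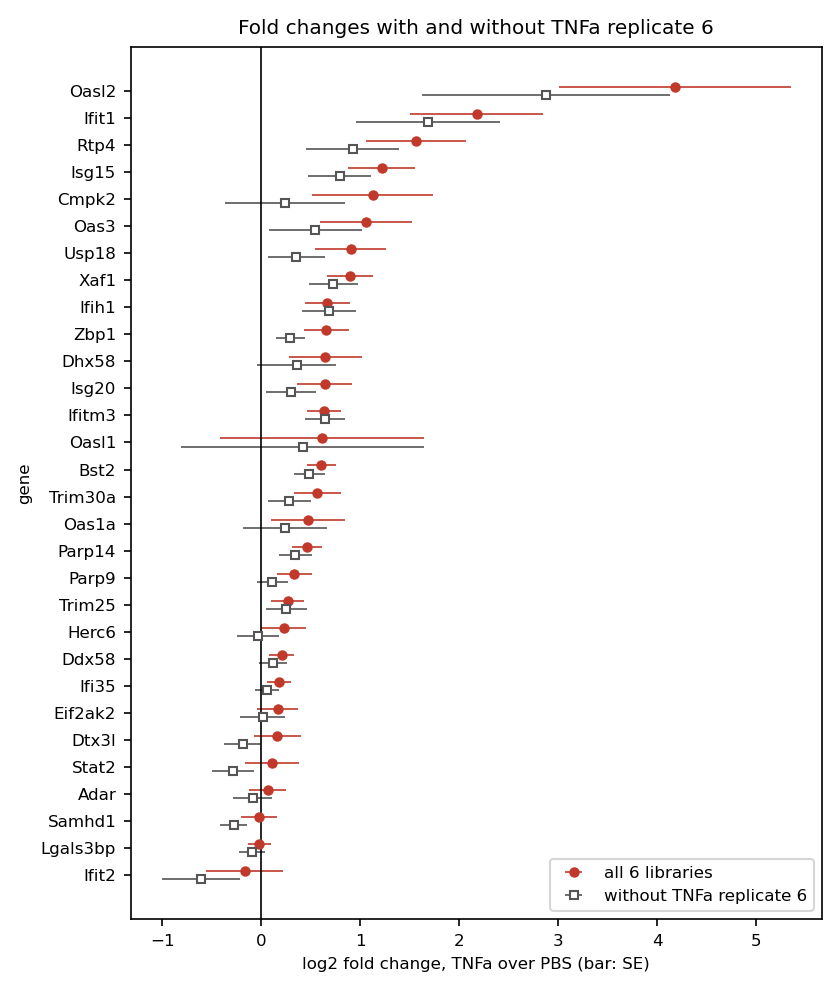
Log2 fold change of TNFa over PBS for each tested member (horizontal axis, bar: SE) with all 6 libraries (red) and without TNFa replicate 6 (open squares). Most squares lie to the left of the red points (1.13 and 0.24 for Cmpk2), while Ifih1 and Ifitm3 hardly differ.

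The rest of the interferon pathway was read from lists of other genes. These lists and the marker lists share genes, among them Irf1, Irf8, Irf9, Socs1, Icam1, Ly6a and Ifng, so they are not separate observations. Of 76 tested interferon-stimulated genes outside the members, 58 had higher means and 0 were called in edgeR's test. At an unadjusted p under 0.05, 13 were higher and 1 lower, and 46 (60.5%) were highest in TNFa replicate 6. Of all 15719 tested genes, 7951 had higher means, 3.68% were higher at that level and 13.7% were highest in that library. The lists that follow are to be read against the same shares. The most abundant were Ly6a, the Sca-1 surface antigen (701 ± 59.0 CPM with PBS and 1621 ± 561 with TNFa, adjusted p = 0.0879), Shisa5 (358 ± 34.4 and 528 ± 46.4 CPM, adjusted p = 0.162), Nt5c3 (383 ± 29.5 and 305 ± 22.6 CPM, adjusted p = 0.421) and Tspo (adjusted p = 0.927). Upstream, the 16 tested receptor, kinase and feedback genes had a median log2 fold change of -0.07, with 0 called. Of these genes, 3 were at an unadjusted p under 0.05, 1 of them higher with TNFa. In either direction, 1306 of all 15719 tested genes were at that level. The abundant Jak1, Socs1 and Socs3 stood at -0.07 ± 0.10, -0.20 ± 0.14 and -0.47 ± 0.13 (adjusted p = 0.899, 0.756 and 0.352). Of 13 tested adaptor genes of nucleic acid sensing, 0 were called and the median was -0.09. At an unadjusted p under 0.05 stood 2 of them, 1 of which was higher with TNFa. In the interferon regulatory factor family, 8 of 9 genes were highest in TNFa replicate 6; 0 were called and 3 were higher at an unadjusted p under 0.05. Irf1 was at 89.3, 94.7 and 98.6 CPM with PBS and 140, 99.6 and 247 CPM with TNFa (0.79 ± 0.27, adjusted p = 0.435). Of 7 tested genes that lean towards interferon-gamma, 6 had higher means, 4 at an unadjusted p under 0.05, and 0 were called. Among them the chemokine gene Cxcl10, chosen after its values were seen, was at 0.170, 0.612 and 0.190 CPM with PBS and 3.83, 2.39 and 5.23 CPM with TNFa (3.55 ± 0.61, adjusted p = 0.0967). Cxcl10 was under the low-count filter's cutoff of 0.337 CPM in PBS replicates 1 and 3, so it was tested only through its TNFa values.

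A list of 20 NF-kB response genes followed another order of libraries. Its medians stood 0.72, 0.30 and 0.53 above the PBS mean in TNFa replicates 4, 5 and 6, where those of the antiviral genes were 0.30, 0.23 and 0.76. Of the 20, 7 (35%) were highest in replicate 4, 4 (20%) in replicate 5 and 3 (15%) in replicate 6. Over all 15719 tested genes these numbers were 2204, 4156 and 2159, so the share in replicate 6 was near that of all genes (13.7%). In edgeR's test 4 of the 20 rose, where 14 of all tested genes did. Among the 4 were Traf1 (151, 151 and 141 CPM with PBS against 246, 255 and 232 with TNFa, adjusted p = 0.0363) and Nfkb2 (55.3, 74.6 and 52.1 against 146, 130 and 136 CPM, adjusted p = 0.0317). The difference between the lists was not tested.

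**Figure D4:**
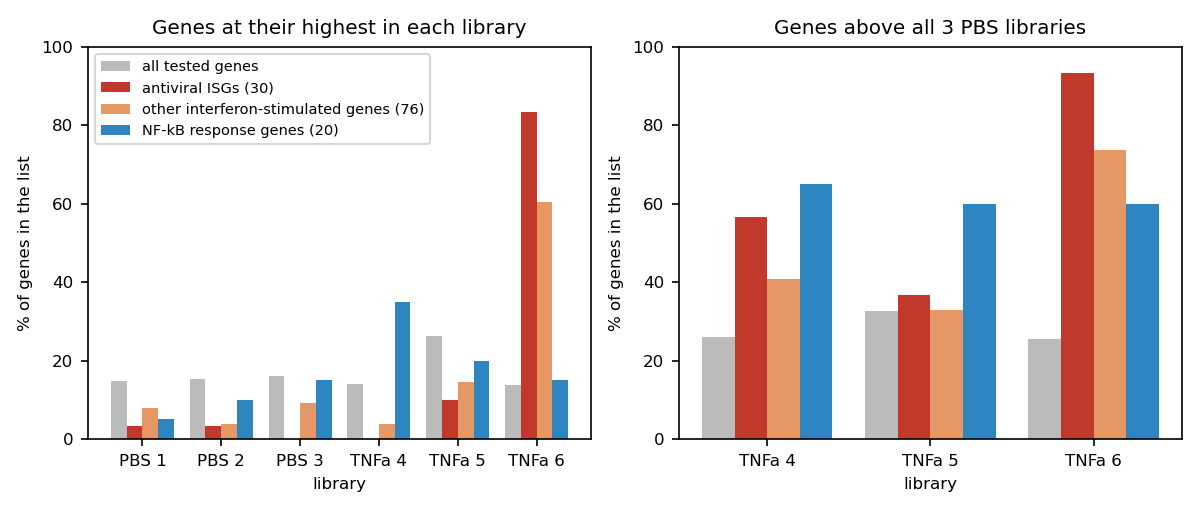
Left, the percentage of genes in each list that had their highest value in a given library; right, the percentage above all 3 PBS libraries in each TNFa library. Bars show all tested genes (grey), the 30 antiviral genes (red), 76 other interferon-stimulated genes (orange) and 20 NF-kB response genes (blue); in TNFa replicate 6 the antiviral genes reach 83.3% and 93.3%, and all tested genes 13.7% and 25.4%.

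Of 21 interferon genes looked for, Ifnb1 and Ifng had a row, and the other 19 were not analysed here. Ifnb1, the type I interferon-beta gene, had 19 counts in TNFa replicate 6 and 0 in each other library, where a count of 0 allows up to 3 counts, or 0.095 to 0.119 CPM (counting error only). Ifng, the type II interferon gene, had 17, 6 and 53 counts with PBS and 103, 53 and 404 with TNFa, or 0.579, 0.204 and 1.68 against 4.07, 1.98 and 12.2 CPM (log2 fold change 2.88 ± 0.81, adjusted p = 0.354). In PBS replicate 2 Ifng was under the low-count filter's cutoff of 0.337 CPM, so it too was tested through its TNFa values. Ifnb1 and Ifng were both highest in the library where the antiviral genes were highest. Their part in the result was not tested.

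Markers of other cell types that could make or answer interferon were set beside this. For plasmacytoid dendritic cells, 9 of 10 markers had a row and 0 of 7 tested were called; their sum was 77.6 to 91.9 CPM with PBS and 63.8, 58.4 and 97.3 CPM in TNFa replicates 4, 5 and 6, of which Irf8 alone was 67.3 CPM in replicate 6. The defining marker Siglech never exceeded 0.190 CPM. For myeloid cells, 16 of 18 had a row and 0 of 12 tested were called, with sums of 55.5 to 117 CPM with PBS and 71.7, 68.3 and 40.6 CPM with TNFa. The low sum in replicate 6 lay in Chil3 (33.1, 21.3 and 0 CPM with TNFa), and Ly6c2 was highest there, at 23.4 CPM. Sums of natural killer cell and ILC1 markers (10 of 11 with a row, 0 of 8 tested called) were 188 to 232 CPM with PBS and 125, 113 and 109 CPM with TNFa. That list includes Ifng, at 12.2 CPM in TNFa replicate 6. B cell markers (7 of 8 with a row, 0 of 6 tested called) summed to 147 to 176 CPM with PBS and to 183, 79.4 and 204 CPM with TNFa, highest in replicate 6 as was the plasmacytoid dendritic cell sum, with Ighd under 1 CPM in every library. T cell, mast cell or basophil, and structural cell markers had 0 of 12, 0 of 10 and 0 of 9 tested genes called. Their sums were 488 to 514, 1339 to 1474 and 129 to 160 CPM with PBS. With TNFa, T cell markers summed to 408, 458 and 407 CPM, mast cell or basophil markers to 1382, 1435 and 1566 CPM, highest in replicate 6, and structural markers to 216, 190 and 153 CPM. The part of these cells in the differences between TNFa libraries was not tested.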

How the data were processed

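RNA-seq values of 6 ILC2 libraries, 3 with PBS and 3 with TNFa, were read from 1 table of estimated counts per gene that the authors deposited. The counts came from Partek's expectation-maximization quantification, per the file name, which divides reads that match several genes and so need not be whole; 7 of the 35 members had whole values (within 0.01) in all 6 libraries. The submitters' processing notes list CASAVA 1.8.2, STAR 3.5.3, Partek and build mm10. For the annotation release, gene filter and strand setting, nothing is given in the sources used here; 8 members overlap another gene. Coordinates of promoters are 1-based on GRCm38.p6.

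Counts were rounded and tested across all genes with edgeR 4.0.16 in R 4.3.3 (filterByExpr with a minimum count of 10 and total of 15, TMM scaling, robust quasi-likelihood test, Benjamini-Hochberg adjustment over 15719 genes, threshold 0.05). SEs derive from the F statistic. CPM use TMM-scaled library sizes. TPM use exon union lengths of GENCODE M21, where all 35 members had the same span. Precision is set by totals of 25089415 to 32487004 counts and by the spread of 3 libraries. The test was also run on simulated counts with changes placed in known genes, where it missed part of them and made some false calls. Those libraries were drawn with equal quality, so the run cannot show how the test performs on libraries as unequal as these. Alternatives were DESeq2 1.42.0, voom with quality weights in limma 3.58.1, other scaling and filters, and leaving out each library; leaving out libraries for the counts of members without overlap and for the medians by library was added after seeing the data. The members, lists, tests and naming rule were chosen with earlier results of these data known. By that rule all members were named, with values per library for 17 of them; Xaf1, Cmpk2, Oas1a, Oas2, Oas3, Rtp4, Ifit2, Lgals3bp and Ifi44 were given in full after their values were seen, as were outside genes beyond the 4 most abundant of a list. Values of some genes of the lists are not reported here.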

Additional observations from a re-analysis of the deposited data

How the results depend on the processing

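With each alternative the median log2 fold change of the tested antiviral genes stayed above 0, from 0.29 to 0.69 when 1 library was left out; the value of 0.29 came without TNFa replicate 6. The number of genes called among all tested was 16, and became 255 with DESeq2, 78 with voom and quality weights, 25 with a filter at 5 CPM, 3 with no filter, and 1 to 67 when 1 library was left out, with 67 without TNFa replicate 5 and 1 without PBS replicate 1. Members called were 4 with DESeq2 and 0 in every other setting run. Members without overlap, 9 of 30, numbered 14 with upper quartile scaling (7.9% of all genes) and 9 to 17 when 1 library was left out, where the share over all genes was also higher, from 9.66% to 13.5%. Small differences changed sign: Lgals3bp and Samhd1 were 0.0111 and 0.0123 with upper quartile scaling, 0.0009 and 0.0022 with the filter at 5 CPM, and 0.0274 and 0.0029 with voom, where Ifit2 was 0.12. When 1 library was left out, log2 fold changes ran from -0.0965 to 0.0523 for Lgals3bp, -0.28 to 0.12 for Samhd1, -0.61 to 0.0805 for Ifit2, -0.0874 to 0.22 for Adar, -0.28 to 0.38 for Stat2, -0.19 to 0.39 for Dtx3l and -0.0333 to 0.43 for Herc6. The scarce Oasl1 and Oasl2 ran from 0.02 to 1.6 and from 2.88 to 7.47. The cause was not tested. No paired analysis was possible because the replicate numbers, 1 to 3 and 4 to 6, are not shared between the groups. Depth limits the 5 members that were not tested, which had at most 61 counts in any library.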
